A study of Mus musculus with 23 samples.

Results

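Def6, Crip2, Sidt2, Abhd4 and Arhgef3 were followed across mouse embryonic fibroblasts that differed in p53, as genes whose level in the 25,26 mutant lay near the wild-type level. They are 5 of the 18193 genes of the arrays, measured by 6 probe sets, and all 5 were among the 15266 genes tested. They were chosen from the 25,26, WT and Null values of these same arrays, with no numerical limit, so those values are given as a description and only other comparisons were tested. For 4 of the 5 the WT arrays all lay above the Null arrays, as did those of 5.04% of genes. Of these 4, Crip2 and Abhd4 were somewhat below WT in 25,26, with 86.4% and 85.4% of the WT rise. Arhgef3 overlapped between the joined WT and Null groups, so no share of a wild-type rise is given for it. The 2 wild-type and null pairs described below gave log2 differences of 0.51 and -0.07 for this gene. In 25,26 all 5 lay above Null without overlap, as did 3.19% of genes, which is part of how they were chosen.

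All 23 arrays came from fibroblasts with retroviral H-Ras V12, an oncogene that drives wild-type cells into senescence. The 25,26 group (n = 5, LSL-25,26 knock-in with Adeno-Cre) carried p53 with L25Q and W26S, which disrupt the first transactivation domain. The 53,54 group (n = 3, LSL-53,54 knock-in with Adeno-Cre) carried W53Q and F54S in the second domain. The QM group (n = 3, LSL-QM knock-in with Adeno-Cre) carried all 4 changes. The WT group (n = 6) joined 3 arrays of LSL-WT knock-in with Adeno-Cre and 3 of WT with Adeno-Cre. The Null group (n = 6) joined 3 arrays of LSL-WT knock-in with Adeno-Empty and 3 of p53 null with Adeno-Cre, and the label of 1 of the last adds "knock-in". LSL is a stop cassette that Cre recombinase removes, so the Adeno-Empty arrays kept an unexpressed allele. The background was 129/Sv or mixed 129/Sv/C57BL6. Mixed arrays made up 1 of 5 for 25,26, 2 of 3 for 53,54, 1 of 3 for QM, 3 of 6 for WT and 2 of 6 for Null.

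p53 is a transcription factor that binds DNA as a tetramer and recruits the transcription machinery through its transactivation domains. Cdkn1a and the other acute stress targets depend strongly on the first domain, while the fibroblast senescence response to oncogenic Ras was the setting in which these mutants were compared. The 5 genes have separate roles. Def6 encodes an exchange factor for Rac and Cdc42 best known from T cells, and Arhgef3 encodes an exchange factor for other small GTPases. Crip2 encodes a cysteine-rich protein with LIM domains, Sidt2 a multispanning membrane protein of the lysosome, and Abhd4 a hydrolase of the N-acylethanolamine lipid pathway.

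The stretches upstream of the transcription starts of the 4 genes that shared a pattern are shown because p53 acts through DNA sites and these genes differed between p53 groups together. Each is the 250 bases before the most upstream start listed by RefSeq (GRCm38.p6), written 5′ to 3′ on the gene's strand. Capitals mark every match to the p53 half-site decamer that kept its core C and G and had at most 1 mismatch elsewhere. The half-site is its own reverse complement, so 1 search covered both strands.
Def6, chr17:28207528-28207777, plus strand: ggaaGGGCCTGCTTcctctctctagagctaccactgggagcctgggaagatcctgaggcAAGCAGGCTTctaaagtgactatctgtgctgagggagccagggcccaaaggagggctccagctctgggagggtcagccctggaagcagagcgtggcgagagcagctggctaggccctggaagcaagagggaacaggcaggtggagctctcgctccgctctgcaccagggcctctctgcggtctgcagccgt
Crip2, chr12:113139986-113140235, plus strand: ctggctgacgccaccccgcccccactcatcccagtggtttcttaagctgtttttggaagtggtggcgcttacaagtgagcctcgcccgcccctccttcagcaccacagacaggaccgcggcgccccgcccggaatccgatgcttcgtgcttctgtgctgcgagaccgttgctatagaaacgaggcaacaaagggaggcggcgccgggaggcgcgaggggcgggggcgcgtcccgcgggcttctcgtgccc
Sidt2, chr9:45955250-45955499, minus strand: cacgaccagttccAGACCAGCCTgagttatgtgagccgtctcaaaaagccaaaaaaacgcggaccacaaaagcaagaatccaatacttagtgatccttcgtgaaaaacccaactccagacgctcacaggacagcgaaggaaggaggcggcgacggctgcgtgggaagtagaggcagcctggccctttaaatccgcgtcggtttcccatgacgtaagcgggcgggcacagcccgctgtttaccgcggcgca
Abhd4, chr14:54253879-54254128, plus strand: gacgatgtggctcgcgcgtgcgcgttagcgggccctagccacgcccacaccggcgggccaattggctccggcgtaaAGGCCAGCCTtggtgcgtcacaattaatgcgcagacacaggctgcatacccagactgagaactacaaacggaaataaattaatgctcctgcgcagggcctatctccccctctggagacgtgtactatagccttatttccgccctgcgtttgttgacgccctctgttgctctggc
All 5 genes had a RefSeq window, 10 windows in all. No window of the 10 held an exact half-site, against 7.13% of 32851 windows of the same length over all genes. With at most 1 mismatch 7 of the 10 held a half-site, against 44.7% of all windows. No window of the 10 held a full site of 2 half-sites up to 13 bases apart with 1 of them exact, against 0.505% of all windows. Absence of these letters says nothing of sites elsewhere in the genes, and the windows of Arhgef3 are not shown.

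The arrays were alike in scale, with a median intensity of 59.9 to 64.22, and levels below are log2 RMA intensities of 1 probe set per gene. All 10 fibroblast markers lay above the filter level (log2 4.79) in every group, and Vim was at 14.58 to 14.67 in the group means. Ptprc, the pan-leukocyte marker, Itgam of myeloid cells, Cd3g and Cd2 of T cells, and Pecam1 and Emcn of endothelium were above it on 0 of 23 arrays. Other markers of the same cell types were above it on all 23, as were 5 of 9 for macrophages (Cd68, Csf1r, Cd14, Lyz2 and Fcer1g), 3 of 8 for lymphocytes (Cd3e, Cd79a and Zap70) and 4 of 8 for endothelium (Cdh5, Kdr, Cldn5 and Eng). So were 6 of 8 epithelial and 6 of 6 muscle markers. The whole lists moved with the groups in part. Unlike Vim, the fibroblast marker Lum ran from 10.28 to 12.26 in the group means, and Pdgfra from 10.82 to 12.15. The summed intensity of 10 fibroblast markers was 85242.5 to 96247 in 25,26, 83919.5 to 99727 in 53,54 and 94623 to 106890 in QM. It was 72933 to 104754 in WT and 93539 to 151475 in Null. The summed intensity of 8 endothelial markers was 633 to 780 on 53,54 arrays, with 25,26 at 507 to 594, QM at 469 to 572, WT at 570 to 725 and Null at 428 to 527. For 9 macrophage markers 53,54 reached 953 to 1073, with 25,26 at 650 to 814, QM at 531 to 665, WT at 549 to 989 and Null at 541 to 673. The endothelial and macrophage sums were above QM and Null on every 53,54 array. For 8 epithelial markers 25,26 spanned 3438 to 7547, 53,54 5396 to 6891, QM 3560 to 4874, WT 4519 to 7624 and Null 1928 to 4417. For 6 muscle markers 25,26 spanned 648 to 1181, 53,54 1105 to 1544, QM 844 to 948, WT 1306 to 5081 and Null 655 to 1123. The 8 measured lymphocyte markers overlapped between groups, 25,26 spanning 584 to 698, 53,54 603 to 663, QM 630 to 654, WT 632 to 728 and Null 586 to 708. The part of other cell types in the results was not tested, and in bulk RNA fewer cells that express a gene and less RNA per cell cannot be told apart. Xist was above log2 8 on 4 of 5 25,26, 1 of 3 53,54, 2 of 3 QM, 4 of 6 WT and 1 of 6 Null arrays. The transcript of the targeted gene is not analysed here. The labels do not say whether arrays of a group came from separate embryos, so p-values measure the spread between these samples.

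Def6 was the exchange-factor gene with the widest separation. Its log2 level was 9.24, 9.48, 9.13, 8.84 and 8.89 in 25,26. It was 10.04, 9.72 and 9.63 in 53,54. The 3 QM arrays lay between these groups and Null, at 8.03, 7.95 and 7.75. In WT the lowest, median and highest levels were 8.87, 9.20 and 9.82, and in Null they were 6.06, 6.42 and 6.94. The 25,26 arrays fell within or just below the WT range, every QM array was below every WT array and above every Null array, and the 53,54 arrays reached the top of WT.

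Arhgef3, the other exchange-factor gene, had no such separation. It was at 7.07, 7.78, 7.73, 7.16 and 7.03 in 25,26 and at 7.39, 7.56 and 7.54 in 53,54. In QM it was at 7.14, 6.88 and 6.92. WT ran from 6.23 over a median of 7.14 to 7.50, on both sides of Null, which ran from 6.62 over 6.77 to 7.01. Replicates 2 and 3 of 25,26 were above every other array, and WT had the widest spread of the 5 groups for this gene, with an SD of 0.47.

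Crip2, the LIM-domain gene, had the largest rise of the 5. Its level was 12.18, 12.10, 12.40, 11.88 and 11.83 in 25,26 and 12.88, 12.95 and 12.67 in 53,54. QM had 10.29, 9.80 and 10.57. The lowest, median and highest levels were 11.94, 12.53 and 13.04 in WT and 8.67, 9.17 and 9.67 in Null. The 25,26 values lay in the lower part of the WT range with 2 arrays below it, and QM lay just above Null and far below WT.

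Sidt2, the lysosomal membrane gene, was at 10.64, 10.70, 10.66, 10.31 and 10.41 in 25,26 and at 10.88, 11.25 and 10.73 in 53,54. QM had 9.43, 9.18 and 9.54. WT ran from 10.25 over 10.47 to 10.83, and Null from 9.06 over 9.29 to 9.44. All 25,26 arrays were inside the WT range, and QM overlapped Null.

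Abhd4, the lipid hydrolase gene, had a level of 12.27, 12.61, 12.64, 12.37 and 12.39 in 25,26 and of 13.01, 13.19 and 13.14 in 53,54. QM had 11.45, 11.28 and 11.27. WT ran from 12.37 over 12.69 to 12.86, and Null from 10.88 over 11.20 to 11.39. The 53,54 arrays were all above the highest WT array, and QM overlapped Null. A second probe set of Abhd4 had a correlation of 0.97 with the first over the 23 arrays and gave the same calls in the tested comparisons. By this second probe set the 53,54 arrays, at 11.49 to 11.66, overlapped the WT arrays, which reached 11.56.

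**Figure D1:**
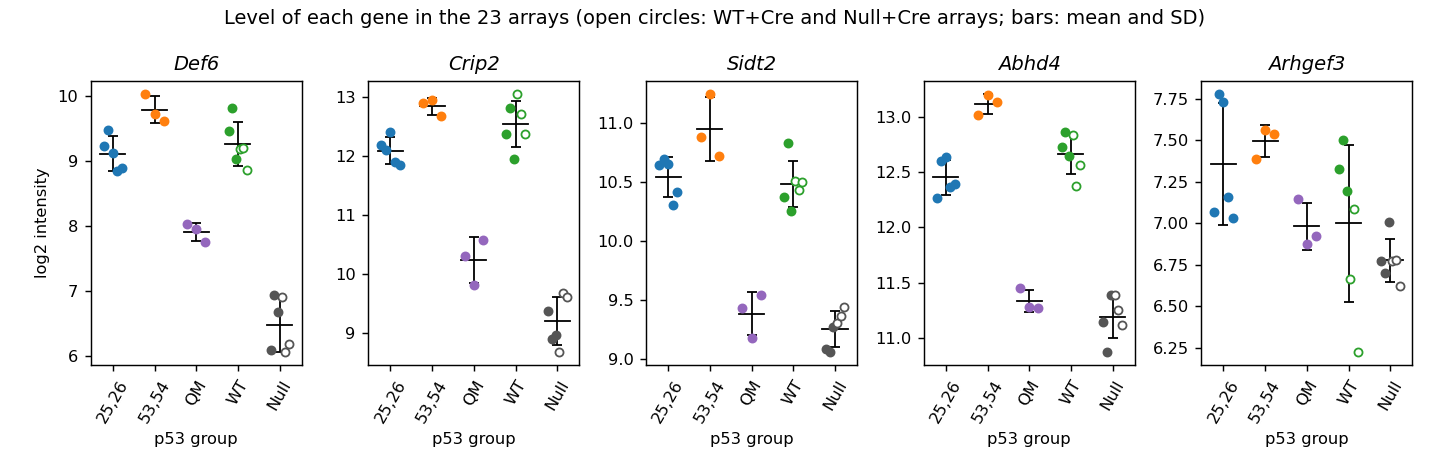
Log2 intensity (vertical axes, a separate scale per gene) of Def6, Crip2, Sidt2, Abhd4 and Arhgef3 on each of 23 arrays, by p53 group. Points are arrays, open circles are WT+Cre and Null+Cre arrays, and bars are the mean and SD. For the first 4 genes the 25,26 arrays lie within or just below the WT range. QM overlaps Null for Sidt2 and Abhd4, lies just above it for Crip2 and lies between Null and WT for Def6, at 7.75 to 8.03, while Arhgef3 in WT spans 6.23 to 7.50 across Null.

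The rise of each mutant over Null was set against the rise of WT over Null, on the log2 scale and with 95% Fieller intervals. For 25,26 these shares follow from the choice of the genes. The WT rise was 2.79 ± 0.17 for Def6 (log2 difference ± SE, n = 6 and 6), 3.34 ± 0.19 for Crip2, 1.23 ± 0.11 for Sidt2 and 1.47 ± 0.10 for Abhd4. In 25,26 Def6 had 94.8% of it (82.0 to 109), Crip2 86.4% (75.1 to 98.7), Sidt2 105% (86.7 to 127) and Abhd4 85.4% (72.3 to 99.9). The corresponding 25,26 differences from WT were -0.15 ± 0.18, -0.45 ± 0.20, 0.06 ± 0.11 and -0.22 ± 0.10.

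The QM shares of the 4 genes ran from 9.50% to 51.5%, and their 53,54 intervals overlapped. Differences between genes were not tested, and the QM interval of Crip2 overlapped those of Def6, Sidt2 and Abhd4. In QM Def6 had 51.5% of the WT rise (36.8 to 66.2) and Crip2 30.8% (17.0 to 44.0). Sidt2 had 10.6% (-13.0 to 31.4) and Abhd4 9.50% (-7.91 to 25.3), both with intervals that include the Null level. In 53,54 the share was 119% (103 to 138) for Def6, 109% (94.8 to 125) for Crip2, 138% (114 to 168) for Sidt2 and 130% (113 to 151) for Abhd4. The WT rise of Arhgef3 was 0.22 ± 0.17 with an interval of -0.14 to 0.58, so no share is given for it. Its level in 25,26 was 0.58 ± 0.18 above Null and 0.35 ± 0.18 above WT.

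**Figure D2:**
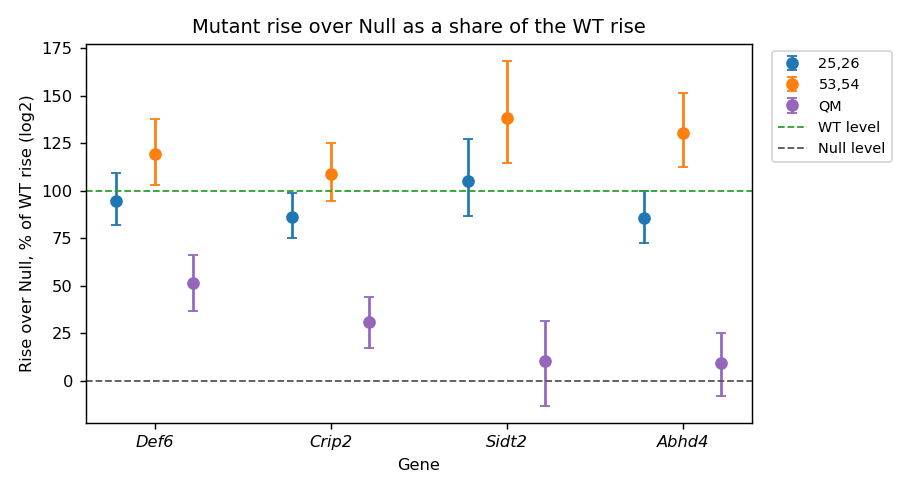
Rise of 25,26, 53,54 and QM over Null as a percentage of the WT rise on the log2 scale (vertical axis) for Def6, Crip2, Sidt2 and Abhd4. Points are estimates and bars 95% Fieller intervals, with the Null level at 0 and the WT level at 100. The 25,26 shares lie between 85.4% and 105%, and the QM shares between 9.50% and 51.5%.

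Among 305 genes that passed as higher in WT than in Null and differed at least 2-fold, 45 had a 25,26 share of at least 80% and the median share was 45.6%. Sidt2 ranked 9, Def6 18, Crip2 29 and Abhd4 31 of the 305 by that share, which is how they were chosen. By the QM share, which did not choose them but shares the WT and Null arrays, Def6 ranked 10, Crip2 41, Sidt2 154 and Abhd4 163, and the median over the 305 was 10.7%. By the 53,54 share they ranked between 64 (Sidt2) and 145 (Crip2), and the median was 107%. A set of 8 other genes recalled from published work on these cells as activated by 25,26 had a median 25,26 share of 68.3%, from 40.8% for Phlda3, an inhibitor of Akt, to 85.2% for Polk, a translesion DNA polymerase. Of the listed arrest and apoptosis targets, 17 were among the 305, with a median 25,26 share of 44.0%, a 53,54 share of 97.4% and a QM share of 8.31%. Their 25,26 shares ran from 14.5% for Rprm to 75.4% for Zmat3, so the highest lay within the range of the published set. Cdkn1a, the kinase inhibitor of p53 arrest, had 30.8% in 25,26 and Mdm2, the p53 ubiquitin ligase, 44.0%. Ccng1 had 70.6%. Apaf1, of the same list but outside the 305 with a WT rise of 0.75, had 184% (136 to 276).

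**Figure D3:**
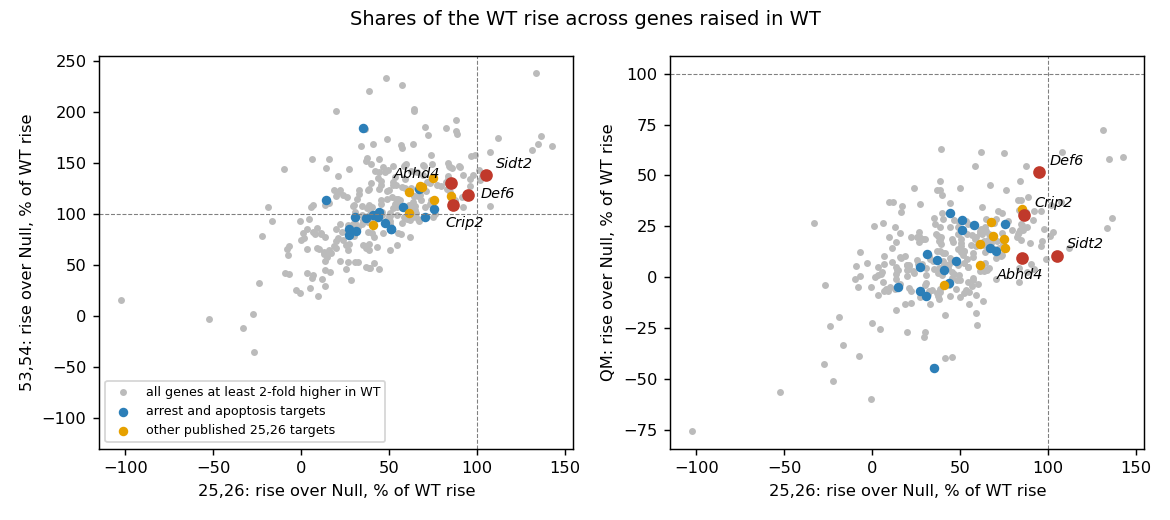
Share of the WT rise over Null in 25,26 (horizontal axes) against that in 53,54 (left) and in QM (right), in percent, for the 305 genes at least 2-fold higher in WT. Red points are Def6, Crip2, Sidt2 and Abhd4, yellow points 8 other published 25,26 targets and blue points 17 arrest and apoptosis targets, and all shares use the same WT and Null arrays. The red points lie at 85.4% to 105% in 25,26 and Def6 lies highest of them in QM, at 51.5%.

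The comparison of 53,54 with QM asked what the 25,26 changes did in p53 that already carried W53Q and F54S in the second domain. The difference of these means uses none of the 25,26, WT and Null arrays from which the genes were chosen. Its SE and p use the spread over all 23 arrays, those included. The genes were also chosen with earlier results of these data known, so their direction here is not fully independent evidence. Crip2 rose by 2.61 ± 0.27 in 53,54 (log2 difference ± SE, n = 3 and 3, limma adjusted p = 8.08e-07), Def6 by 1.89 ± 0.25 (adjusted p = 1.89e-05), Abhd4 by 1.78 ± 0.14 (adjusted p = 1.64e-08) and Sidt2 by 1.57 ± 0.15 (adjusted p = 4.6e-07). Arhgef3 had a difference of 0.52 ± 0.25 and did not pass (adjusted p = 0.2), although its 3 arrays of 53,54 were above the 3 of QM, as for 12.1% of genes. It passed when only these 6 arrays were fitted (adjusted p = 0.039). In this comparison 5.69% of the genes tested passed as higher in 53,54, and 4 of the 5 genes did, with a median difference of 1.78 over the 5 against -0.02 over all genes. Of all genes 2034 passed in either direction, against 3580 under the replicate block on title numbers.

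Against Null, all 5 genes rose in 53,54, where 9.22% of genes passed as higher (2986 in either direction, 4847 when blocked). This comparison and the next share the Null arrays that helped to choose the genes. Crip2 rose by 3.64 ± 0.23 (n = 3 and 6, limma adjusted p = 3.51e-10), Def6 by 3.32 ± 0.21, Abhd4 by 1.92 ± 0.12, Sidt2 by 1.70 ± 0.13 and Arhgef3 by 0.72 ± 0.21 (adjusted p = 0.0188). The call of Arhgef3 ended without 53,54 replicate 3 (0.69, adjusted p = 0.0826) or replicate 4 (0.70, adjusted p = 0.0599).

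In QM Def6 rose over Null by 1.44 ± 0.21 (n = 3 and 6, limma adjusted p = 0.00914), a 2.71-fold higher level. It was 1 of 2 genes called of 15266 (0.0131%, with 2.47% at an unadjusted p under 0.05). The other, named after its values were seen, was Sulf2, an extracellular sulfatase, at 1.64 ± 0.25. The call of Def6 ended without QM replicate 1, 2 or 3, at 1.38, 1.42 and 1.51 with adjusted p of 0.177, 0.131 and 0.101, and with the QM and Null arrays alone (adjusted p = 0.5). The 3 QM arrays did not overlap the 6 Null arrays. Crip2 did not pass (1.03 ± 0.23, adjusted p = 0.437), although it ranked 8 of 15266 by its moderated statistic and its groups did not overlap either, as for 0.95% of genes. Sidt2 was at 0.13 ± 0.13, Abhd4 at 0.14 ± 0.12 and Arhgef3 at 0.20 ± 0.21, each with a limma adjusted p of 1 and 95% intervals that reached 0.41, 0.39 and 0.65.

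QM was lower than WT for the same 4 genes, where 5.76% of genes passed as lower (2125 in either direction, 4025 when blocked). The log2 difference was -2.31 ± 0.23 for Crip2 (n = 3 and 6, limma adjusted p = 7.28e-07), -1.35 ± 0.21 for Def6 (adjusted p = 0.00017), -1.33 ± 0.12 for Abhd4 (adjusted p = 1.43e-07) and -1.10 ± 0.13 for Sidt2 (adjusted p = 8.62e-06). Arhgef3 had a difference of -0.02 ± 0.21 (adjusted p = 0.979), with an interval of -0.46 to 0.42. The QM arrays of Def6, Crip2, Sidt2 and Abhd4 all lay below the WT arrays, as for 6.55% of genes. For Def6 and Crip2 they also lay above every Null array, as for 0.95% of genes.

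No gene of the 5 passed between 53,54 and WT, where 56 genes of all tested did (0.367%, 158 genes when blocked). With limma 4 of the 5 had an unadjusted p under 0.05, as had 7.21% of all genes. The differences were 0.53 ± 0.21 for Def6 (adjusted p = 0.523), 0.50 ± 0.21 for Arhgef3 (adjusted p = 0.582), 0.47 ± 0.13 for Sidt2 (adjusted p = 0.19), 0.45 ± 0.12 for Abhd4 (adjusted p = 0.147) and 0.30 ± 0.23 for Crip2 (adjusted p = 0.864). All 5 estimates were positive, and by the probe set used the Abhd4 arrays of 53,54 did not overlap WT, as for 1.38% of genes. By the second probe set of Abhd4 they did overlap. Sidt2 passed without WT replicate 2 (0.54, adjusted p = 0.0437). With the LSL-WT arrays alone as WT, the difference was smaller for Arhgef3 (0.16), Def6 (0.36) and Abhd4 (0.37) and larger for Crip2 (0.47).

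**Figure D4:**
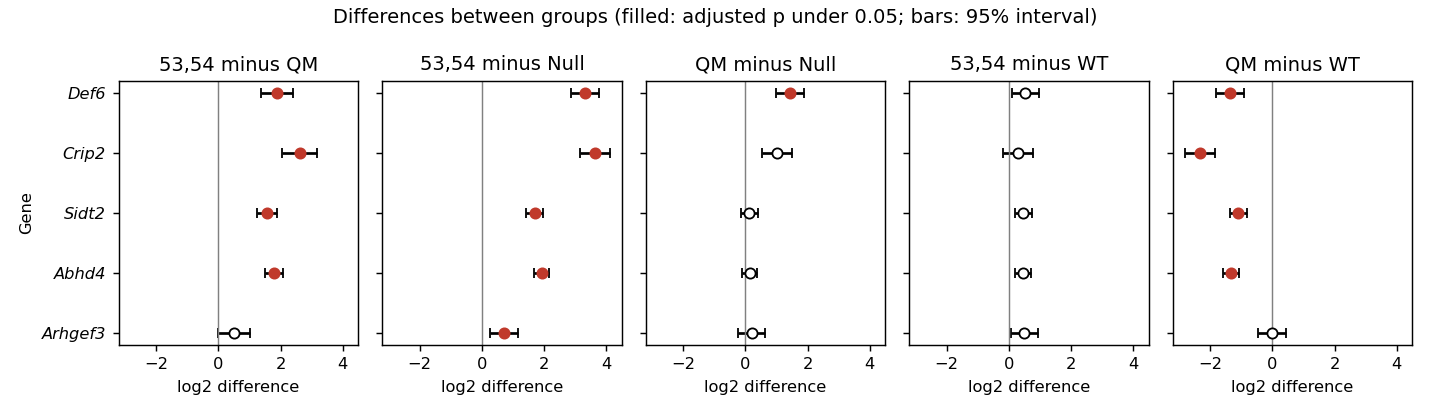
Log2 difference (horizontal axes) of each gene in the comparisons of 53,54 and QM with each other and with Null and WT. Points are estimates, filled where the limma adjusted p is under 0.05, and bars are 95% intervals. All 5 genes are filled for 53,54 against Null, Def6 alone for QM against Null at 1.44, and none for 53,54 against WT.

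Within the wild-type comparison, LSL-WT arrays with Adeno-Cre over those with Adeno-Empty gave a Def6 difference of 2.87 ± 0.24 (n = 3 and 3), and WT over null arrays, both with Adeno-Cre, gave 2.71 ± 0.24. For Crip2 these were 3.29 ± 0.26 and 3.39 ± 0.26, for Sidt2 1.35 ± 0.15 and 1.11 ± 0.15, and for Abhd4 1.61 ± 0.14 and 1.34 ± 0.14. Arhgef3 had 0.51 ± 0.20 in the first pair and -0.07 ± 0.20 in the second. The first minus the second was 0.58 ± 0.29 for Arhgef3 (limma adjusted p = 0.671, interval -0.02 to 1.18) and between -0.10 and 0.27 for the other 4, none of which passed. Lrp11 alone of 15266 genes (0.00655%) passed this test, against 245 genes when blocked. It was named after its values were seen. None of the 5 had an unadjusted p under 0.05. The genotype label of WT replicate 6, which had the lowest Arhgef3 level of all arrays, reads LSL-WT while its title reads WT.

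Strain background was also compared, as mixed minus 129 within groups. No gene of the 5 passed, where 3.29% of genes did (502 genes, 318 when blocked), and none had an unadjusted p under 0.05. The differences lay between -0.09 ± 0.15 for Crip2 and 0.09 ± 0.14 for Arhgef3, with adjusted p of 0.766 to 0.955.

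Def6, Crip2, Sidt2 and Abhd4, chosen for their pattern over the 25,26, WT and Null arrays, had correlated profiles, and Arhgef3 followed them less closely. Over the 23 arrays the correlation of any pair of Def6, Crip2, Sidt2 and Abhd4 was 0.92 to 0.96, and that of Arhgef3 with the others 0.51 to 0.62. After subtraction of the group means the 10 pairs had correlations of -0.21 to 0.60, with a median of 0.25. Crip2 and Sidt2 stood at the top of that range and Def6 and Crip2 at the bottom. These are descriptions, since arrays share groups.

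The 10 genes whose levels over the 23 arrays were most like the mean scaled profile of the 5 had correlations of 0.96 to 0.97. They were Tbc1d8, of a family of Rab GTPase activators, the tyrosine phosphatase gene Ptpn14, the calcium-sensor gene Hpcal1, the Polycomb ring-finger gene Pcgf3, the Cdc42-binding kinase gene Cdc42bpg, Cep170b, the aldo-keto reductase gene Akr1b10, the proton-pump subunit gene Tcirg1, Tex15 and the lysosomal peptidase gene Tpp1. Because these genes were picked by profile over the same arrays, their shares follow in part from that choice. Tbc1d8 had 90.3% of its WT rise of 2.94 in 25,26, 146% in 53,54 and 6.60% in QM. Tex15, with a WT rise of 2.32, had 99.2%, 158% and 8.73%, and Cdc42bpg, with 2.58, had 91.4%, 117% and 28.2%.

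The closest relatives, some of which stand in the lists that follow too, were set beside them in 53,54 against QM. Of 4 that passed the filter, 1 rose. Abhd5, the relative of Abhd4 and an activator of fat-droplet lipolysis, rose by 0.64 ± 0.14 (limma adjusted p = 0.00352), and against Null by 0.91 ± 0.12. Swap70, the relative of Def6, was at -0.05 ± 0.14 (adjusted p = 0.893). Crip1 was at -0.66 ± 0.37 (adjusted p = 0.299) and Net1, an exchange-factor gene and the relative of Arhgef3, at -0.97 ± 0.46 (adjusted p = 0.205).

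Of 15 small LIM protein genes tested 1 rose, Pdlim5 at 0.78 ± 0.22, with a median of 0.04. Of 13 lysosomal genes tested 5 rose, with a median of 0.25, among them the membrane gene Scarb2 at 0.91 ± 0.16, the protease gene Ctsd at 1.01 ± 0.20, Lamp2 at 0.47 ± 0.14 and the proton-pump gene Atp6v1h at 0.56 ± 0.18. Of 12 acylethanolamine and related lipid enzymes Abhd5 alone rose, with a median of 0.15. No gene of these 3 lists fell. The background for a rise was 5.69% of genes, and for a fall 7.63%.

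The lists of p53 targets were set beside them in 53,54 against QM. All 8 other published 25,26 targets rose, with a median of 2.13. Trp53inp1, a stress and autophagy gene, rose by 4.09 ± 0.28 (limma adjusted p = 2.77e-09), Phlda3 by 2.87 ± 0.22, Arap2, a GTPase-activating protein gene, by 2.75 ± 0.17 and the repair nuclease gene Ercc5 by 2.31 ± 0.15. The methyltransferase gene Mgmt rose by 1.95 ± 0.20, Polk by 1.74 ± 0.25, Cgref1 by 1.58 ± 0.34 and Kank3 by 1.47 ± 0.24. Some of these genes were picked by their authors on the same arrays, so their direction is not independent evidence. Of 23 arrest and apoptosis targets 17 rose, with a median of 2.01, among them Psrc1, a microtubule-binding spindle gene, at 5.04 ± 0.29, the receptor gene Eda2r at 3.81 ± 0.29, the cyclin gene Ccng1 at 2.77 ± 0.13 and Mdm2 at 2.68 ± 0.19. The other 6 did not pass, and they are named after their values were seen. The stress gene Gadd45a was at -0.10 ± 0.18 and the repair gene Ddb2 at -0.62 ± 0.24 (limma adjusted p = 0.839 and 0.0926). Estimates were positive for Tnfrsf10b (0.59 ± 0.26), Bbc3 (0.40 ± 0.25), Sesn1 (0.15 ± 0.12) and Xpc (0.15 ± 0.16). No gene of either list passed in QM against Null with limma. There 3 of the 8 and 7 of the 23 had an unadjusted limma p under 0.05, as had 2.47% of all genes. These counts cover both directions. Among the 7, Fas was lower in QM, at -0.70 ± 0.26, and the rest were higher. The list medians were 0.35 and 0.16 against 0.01 over all genes.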

How the data were processed

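Per the submitters' processing notes the authors used RMA, and the deposited values are one intensity per probe set and array on a linear scale, from 8.55 to 32042; the version, options and genome build are not given in the sources used here. The values were taken to log2. Of 45101 probe sets, 64 controls were left out, and of the rest 34945 had 1 gene symbol in the platform annotation, 932 several and 9160 none listed. Of several probe sets for 1 gene the brightest on average was used, which left 18193 genes, and 15266 genes had at least 3 arrays above the 30th percentile (log2 4.79).

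A means model of 5 groups was fitted to all 23 arrays with limma 3.58.1 in R 4.3.3 (two-sided moderated test, Benjamini-Hochberg over all genes, threshold 0.05). The 2 pairs within the wild-type comparison came from a fit of 7 subgroups, and strain entered as an added term. The number of arrays limits the precision. The method was tested on simulated data for 53,54 against QM, with errors drawn independently for each array. It recovered 35% of changes of log2 0.5 and 73% of changes of log2 1, with 5 false calls among 113. Small differences can therefore fail to pass. Genes, lists and tests were chosen with earlier results of these data known. Beside the 5 genes, the text names the 10 genes with the most similar profile, every tested relative and published target, and up to 4 genes per other list by moderated statistic; 1 list is not reported here.

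Residuals of arrays with the same title number correlated in every comparison (lowest 0.121, medians 0.353 to 0.736). The number was therefore taken to pair arrays, from the data and the titles. The fit reported did not use this pairing, which entered as a block in an alternative fit. The 53,54 and QM groups share only 2 numbers. The alternatives were other filters, probe-set rules, normalizations, covariates, the title number as a block, variance models, subsets of arrays and each array left out.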

Additional observations from a re-analysis of the deposited data

Results flagged for a closer look

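The second probe set of Abhd4, which was not the one used for its level, had a log2 level of 9.68 in Null replicate 4, against 9.26 to 9.42 on the other 5 Null arrays. The gap to the nearest array was 0.63 of the range of the group. It was the only such value in 18 groups of 4 to 6 arrays examined, and chance alone gives about 1 in 20. The probe set used for Abhd4 showed no such array.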

How the results depend on the processing

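Of 1200 values of single genes in the tested comparisons under other settings, 1172 kept their direction and their side of the threshold. The number of the 5 genes called in QM against Null, 1 in the fit reported, was 0 with the compared arrays alone, and 0 to 1 when arrays were left out in turn. In 53,54 against WT it was 0 to 1 when arrays were left out. Differences near 0 changed sign: Arhgef3 in QM against WT was 0.0058 after median centring and -0.17 to 0.081 when arrays were left out. With the LSL-WT arrays alone as WT it was -0.36. In the difference between the wild-type pairs Crip2 was -0.32 to 0.22 and Def6 -0.10 to 0.37 when arrays were left out. For strain, Def6 was 0.043 with the title number as a replicate block and -0.11 to 0.0056 when arrays were left out, and Sidt2 was 0.0014 after median centring and -0.074 to 0.025 when arrays were left out. The cause of these changes was not tested. The replicate block changed no call of the 5 genes. Over all genes, the 2034 calls of 53,54 against QM became 3263 with all probe sets, and the 2986 of 53,54 against Null became 4956. The 2 calls of QM against Null became 4 with all probe sets, 0 with the compared arrays alone and 31 when Null was limited to its Cre arrays. The 56 of 53,54 against WT became 37 above the median filter, 3 with the compared arrays alone and 6 with LSL-WT arrays alone, and the 2125 of QM against WT became 1284 with the compared arrays alone. The 502 of strain became 869 with all probe sets, and the 1 of the wild-type pairs ranged from 0 to 245. Single arrays also moved these totals. Without 53,54 replicate 3 there were 1288 calls against QM and 1923 against Null, and the total of 53,54 against WT was 11 without 53,54 replicate 3 and 143 without WT replicate 2. That of QM against WT was 1399 without QM replicate 3 and 1411 without QM replicate 1, that of strain 285 without Null replicate 3, and that of the wild-type pairs 47 without WT replicate 6.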
